A study of Mus musculus with 6 samples.

Results

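Imprinted genes are expressed mainly from the copy inherited from 1 parent. This account follows 31 of them, H19 and Nnat among them, in mouse lung. The members were found by an exact match of the gene symbol in the deposited count table. All 31 symbols were present among 41388 genes, Rian with a second identifier that had 0 counts in every library. The study addressed links between the Zpbp2 region and clock gene expression. It compared lungs of adult mice carrying a Zpbp2 deletion that removes its first exons and part of its promoter (KO, strain B6.129S7-Zpbp2 tmZuk/Mmjax in a C57BL/6J background) with lungs of C57BL/6J mice of the same colony (WT). All 6 libraries, 3 of each genotype, were made from total lung RNA taken at ZT7, which is 7 h after lights on, and no other treatment was given. Exact ages and the sex of these mice were not given in the sources used here. All 6 libraries held the Y-linked Ddx3y at 55.5 to 80.35 CPM (counts per 1000000, after TMM scaling of the library sizes) and Xist at no more than 0.370 CPM.

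Imprinting is set by DNA methylation that differs between egg and sperm and is kept through development at control regions, each of which governs a cluster of neighbouring genes. Many imprinted genes act on growth before birth: those expressed from the paternal copy often promote it, and those expressed from the maternal copy often restrain it. After birth most of them are turned down in lung and other organs, and several stay on in mesenchymal, endothelial and neural cells. RNA counts give the sum of both copies, so which parental copy was expressed was not measured here.

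Total counts ranged from 59134950 to 71354388 a library, and 6 genes that mark lung (Sftpc, Sftpb, Scgb1a1, Ager, Cldn18 and Foxj1) were detected in every library. Zpbp2 had 20, 15 and 7 counts in WT1, WT2 and WT3 and 1, 0 and 0 in KO1, KO2 and KO3. Among genes with 2000 to 20000 summed counts, the variance between KO2 and KO3 was 1.94 times that of counting alone, against 8.86 to 21.1 times for every other pair within a genotype. They were therefore counted as 1 sample, which leaves n = 3 WT and n = 2 KO samples, while the value in each of the 6 libraries is shown throughout. WT3 and KO1 stood apart from the other 4 libraries on the leading principal component, which held 52.3% of the variance. KO2 and KO3 also held the most erythroid RNA, with sums of 19000 and 19730 CPM over 6 genes, against 2401 to 5513 CPM elsewhere. The study's methods name 3 mice of each genotype, and the labels give each library its own identifier. The p-values measure only the spread between these few samples.

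The promoter windows of the 3 members that fell past the threshold, Nnat, Peg3 and Meg3, are shown first because these genes carry the main result. Each window holds 250 bases before and 50 bases after a RefSeq transcription start on GRCm38.p6, reads 5′ to 3′ on the gene's strand, and has its CpG dinucleotides, the sites that imprints methylate, in capitals. Nnat lies on the plus strand at chr2:157559828-157560127. Peg3 lies on the minus strand at chr7:6730370-6730669. The first Meg3 window lies on the plus strand at chr12:109540746-109541045.
Nnat: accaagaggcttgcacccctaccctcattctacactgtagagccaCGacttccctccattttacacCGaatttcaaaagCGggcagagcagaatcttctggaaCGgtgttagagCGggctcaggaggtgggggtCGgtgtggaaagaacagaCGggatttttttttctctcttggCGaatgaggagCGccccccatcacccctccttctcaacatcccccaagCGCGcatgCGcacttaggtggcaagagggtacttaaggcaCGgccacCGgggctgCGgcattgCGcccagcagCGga
Peg3: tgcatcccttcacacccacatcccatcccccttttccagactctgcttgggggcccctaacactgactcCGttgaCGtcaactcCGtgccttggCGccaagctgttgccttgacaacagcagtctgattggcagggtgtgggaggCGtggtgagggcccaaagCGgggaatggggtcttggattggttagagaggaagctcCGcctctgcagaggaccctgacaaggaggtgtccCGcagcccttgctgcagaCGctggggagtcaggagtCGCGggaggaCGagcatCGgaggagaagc
Meg3: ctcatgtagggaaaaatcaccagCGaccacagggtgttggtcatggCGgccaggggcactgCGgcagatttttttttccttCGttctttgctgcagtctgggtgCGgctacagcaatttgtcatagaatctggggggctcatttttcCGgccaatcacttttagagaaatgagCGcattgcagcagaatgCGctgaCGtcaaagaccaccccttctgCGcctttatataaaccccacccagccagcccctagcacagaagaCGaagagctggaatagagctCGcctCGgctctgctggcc

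These windows held 17, 13 and 13 CpG dinucleotides respectively, and the median over all 32851 windows of the table was 7. A second Meg3 window, at chr12:109545148-109545447, held 1 CpG and no TGCCGC and is not printed. RefSeq windows were found for 25 of the 31 members (42 windows, median 10.5 CpG dinucleotides), and H19, Cdkn1c, Sgce, Peg10, Impact and Rtl1 had no entry. The hexamer TGCCGC, the motif of the imprint-keeping zinc finger protein ZFP57, was searched on both strands. It occurred once in the Nnat window and once in the Meg3 window, and in 10 of the 42 windows of members, against 11.6% of all windows. A pair of Mest windows among these 10 overlap almost fully. The letters GCCATNTT, a core of the YY1 motif, were searched in the same way and occurred in 1 member window (Slc38a4), against 6.1% of all windows. The Peg3 window held no copy of these letters. It shares 263 bases with the window of Usp29, which is transcribed in the opposite direction from the same start region.

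The members differed widely in level. Per length (CPM per kb of merged exons, the only scale on which genes are compared with each other here), Gnas was highest in WT at 82.6, followed by H19 at 36.0, Nnat at 24.9, Igf2r at 18.1 and Cdkn1c at 15.1. Gnas encodes the stimulatory G protein alpha subunit that couples receptors to cAMP, and most of its transcript is expressed from both copies in most tissues. The H19 value is an average over WT libraries that run from 1.03 to 246 CPM, so its place in the order holds for no single library. Igf2r and Cdkn1c differed by more than their spread in WT, but in KO Cdkn1c (20.9) stood above Igf2r (15.7) and Nnat (9.64). Below 10 came Impact (9.45), Grb10 (7.53), Sgce (6.89), Slc22a18 (5.65), Plagl1 (4.81), Airn (4.67), Ndn (4.01), Igf2 (3.93), Snrpn (3.72), Peg3 (3.65) and Slc38a4 (3.55). From Ndn to Slc38a4, the WT libraries of each gene overlapped those of the next in this order. Meg3 (1.87) and Mest (1.52) were lower, and Peg12, Peg10 and Phlda2 lay between 0.765 and 0.816. Rian, Asb4, Zdbf2, Kcnq1ot1, Zim1, Mirg and Dlk1 lay between 0.0788 and 0.526. Rtl1, Magel2 and Usp29 had at most 6 counts in any library and were not tested. In KO each of these 3 had at most 1 count in a library, under a floor of 3 counts or at most 0.0514 CPM.

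**Figure D1:**
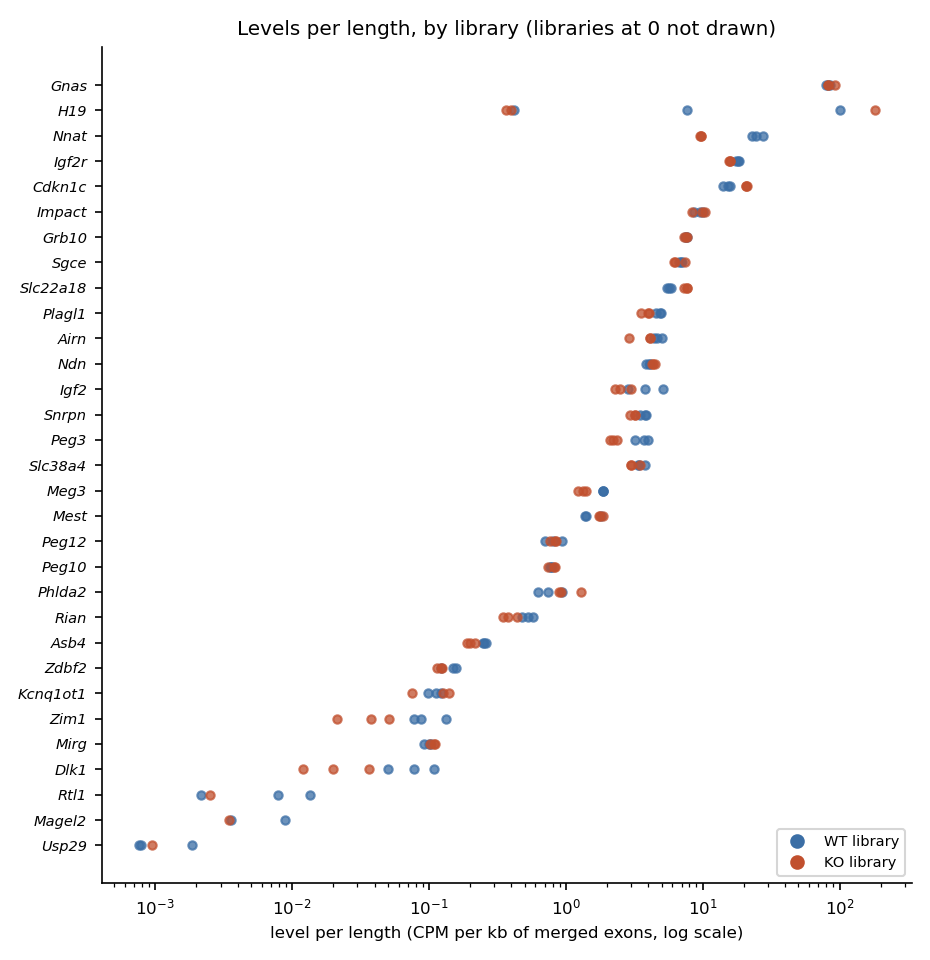
Level per length of each member in each library, in CPM per kb of merged exons on a log scale (blue, WT; orange, KO; libraries at 0 not drawn), ordered by the WT mean. Gnas is highest at 82.6 in WT, Rtl1, Magel2 and Usp29 are lowest, and H19 spreads over a factor of 496.

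KO was compared with WT over all genes with the edgeR quasi-likelihood test, and a member was called where the adjusted p did not exceed 0.05. Nnat, Peg3 and Meg3 were lower in KO and Cdkn1c was higher. Of the 28 members that passed the filter on low counts, 4 were called (14.3%), 3 lower and 1 higher, against 2.28% of all 18660 tested genes (0.906% lower and 1.38% higher). An unadjusted p of 0.05 or less was found for 11 members (39.3%, against 27.3% of all genes). The groups of libraries did not overlap for 14 of the 28 members, 11 with KO below WT and 3 with KO above WT. Among all tested genes 40.8% did not overlap, 20.8% with KO below and 20.0% with KO above. The median log2 fold change of the tested members was -0.11, against 0.02 over all genes, and 18 of the 28 estimates were below 0. With the 6 libraries kept separate 10 members were called, 8 lower and 2 higher (35.7%, against 18.9% of all genes, 9.07% lower and 9.81% higher). The calls lay close to the threshold: leaving out any 1 of the 5 samples, WT1, WT2, WT3, KO1 or the merged KO2 and KO3, left 0 members called by edgeR, while 9 to 11 members had an unadjusted p of 0.05 or less. In the same fits 0 to 17 of 18278 to 19260 tested genes were called and 3346 to 5070 had such an unadjusted p. The direction of the 4 called members was kept each time.

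Nnat showed the largest called difference among the members. It encodes neuronatin, a small membrane proteolipid of the endoplasmic reticulum known from developing brain, endocrine cells and adipocytes, and it lies within Blcap, which is transcribed from the other strand, with no shared exon bases. Its gene spans chr2:157560078-157562522 on GRCm38. Nnat was at 50.1, 44.8 and 41.7 CPM in WT1, WT2 and WT3 and at 17.7, 17.6 and 17.7 CPM in KO1, KO2 and KO3. Every KO library was below every WT library, and the KO libraries differed little from each other although KO1 stood apart from KO2 and KO3 over all genes. Its mean was 45.5 ± 4.21 CPM in WT (SD, n = 3) and 17.6 ± 0.0286 CPM in KO (SD, n = 2), so Nnat was 2.58-fold lower in KO. The edgeR estimate was -1.36 (SE 0.09) as a log2 fold change, with an adjusted p of 0.0446. Over 15 alternatives of processing the log2 fold change ran from -1.55 to -1.29, and with an offset for gene length and GC content it was -1.55 with an edgeR adjusted p of 0.107. Without 1 sample at a time the edgeR adjusted p was 0.0783 to 0.189.

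Peg3, a Krüppel-type zinc finger protein that is expressed from the paternal copy and known in placenta, brain and progenitor cells, also fell. It lies at chr7:6703892-6730431 on the minus strand. Peg3 was at 53.3, 49.8 and 42.8 CPM in WT1, WT2 and WT3 and at 27.9, 29.4 and 31.5 CPM in KO1, KO2 and KO3. The groups did not overlap. Its mean was 48.6 ± 5.36 CPM in WT (SD, n = 3) and 29.2 ± 1.83 CPM in KO (SD, n = 2), and edgeR gave an adjusted p of 0.0497 for a log2 fold change of -0.73 (SE 0.11). With the length and GC offset it was -0.46 (edgeR adjusted p 0.132), with library size alone -0.79 (0.0519), and without 1 sample at a time the adjusted p was 0.0888 to 0.189. Its neighbour Zim1, a zinc finger gene expressed from the maternal copy, had few reads: 52, 44 and 65 counts in the WT libraries and 26, 19 and 10 in the KO libraries. These groups did not overlap either, and edgeR estimated -1.31 on the log2 scale (SE 0.39), adjusted p 0.113 and, with the 6 libraries kept separate, 0.0431. Usp29, a ubiquitin protease gene that starts beside Peg3, had at most 2 counts in a library.

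Meg3 was the called member of the Dlk1/Meg3 cluster on chromosome 12, where Meg3, Rian and Mirg are noncoding RNAs of the maternal copy that carry small RNAs, and Dlk1 and Rtl1 are proteins of the paternal copy. Meg3 was at 33.8, 33.75 and 34.0 CPM in WT1, WT2 and WT3 and at 22.2, 24.1 and 25.4 CPM in KO1, KO2 and KO3. WT libraries were nearly equal and all KO libraries were lower. Meg3 had an edgeR adjusted p of 0.0446 at a log2 fold change of -0.52 (SE 0.07). The length and GC offset moved it to -0.22 (edgeR adjusted p 0.165), and without 1 sample at a time the adjusted p was 0.0840 to 0.189. Meg3 is a long gene with 18.1 kb of merged exons, against 1.83 kb for Nnat.

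Rian and Dlk1 lay on the same side as Meg3 without passing the test. Rian, a host of box C/D snoRNAs, was at 8.67, 9.64 and 10.5 CPM in the WT libraries and at 8.02, 6.30 and 6.85 CPM in KO1, KO2 and KO3 (log2 fold change -0.39, edgeR adjusted p 0.157). Its estimate under the length and GC offset was 0.01. Dlk1, a transmembrane relative of Notch ligands that keeps preadipocytes from maturing, had 32, 20 and 37 counts in the WT libraries against 13, 7 and 4 in the KO libraries. Its groups did not overlap, and edgeR estimated -1.62 on the log2 scale (SE 0.53), with adjusted p values of 0.135 and, with the 6 libraries kept separate, 0.0471. The Dlk1 estimate was -2.27 without KO1 and -1.10 without KO2 and KO3. Mirg, a miRNA host, was at 0.670 to 0.751 CPM in WT and 0.736 to 0.806 CPM in KO, with overlapping groups (edgeR adjusted p 0.692).

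**Figure D2:**
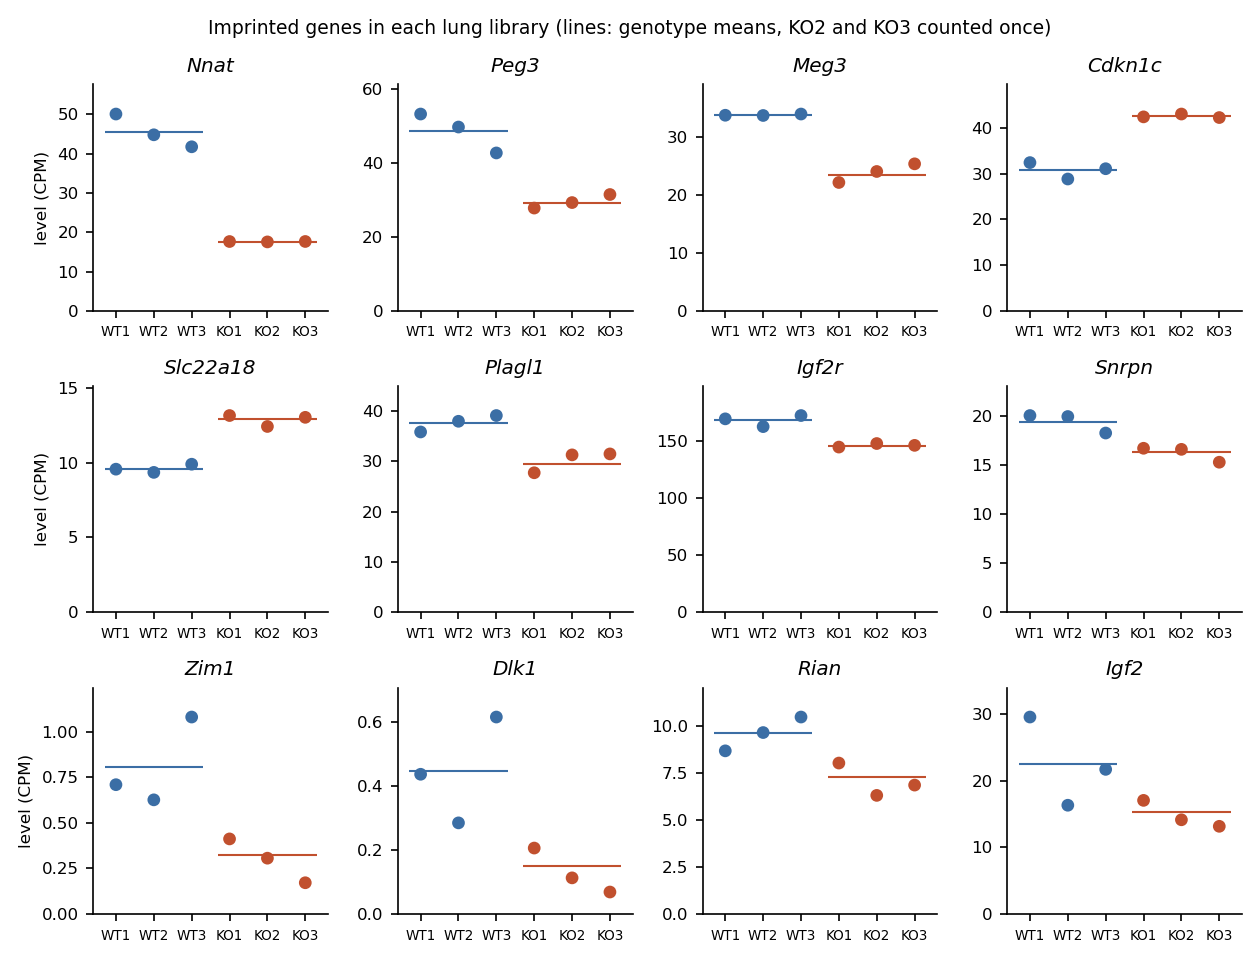
Level in CPM (linear axis from 0) of 12 members in each library, with WT in blue and KO in orange; lines are genotype means, with KO2 and KO3 counted once. Nnat lies at 17.6 to 17.7 CPM in all KO libraries and at 41.7 to 50.1 CPM in WT, whereas the Igf2 groups overlap.

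Levels of RNA in a whole lung cannot tell fewer cells of a type from less RNA per cell. Of 12 adipocyte genes 3 were called lower (Lpl, Lipe and Plin1, against 0.906% of all genes), 9 did not pass, 11 had estimates below 0, and their sum was 1464 to 1934 CPM in WT and 645 to 824 CPM in KO, with none of the 12 at 0 in all libraries. Of 10 fibroblast genes 7 had estimates below 0 and 1, Dcn, was called lower, with sums of 2825 to 3381 CPM in WT and 2407 to 2968 CPM in KO. Neuron and Schwann cell genes summed to 91.7 to 108 CPM in WT and 77.6 to 106 CPM in KO, with 8 of 10 estimates below 0 and 0 called by edgeR (6 with an unadjusted p of 0.05 or less, against 27.3% of all genes, and 5 by DESeq2, against 3919 of 18660 genes). Cardiomyocyte genes summed to 3251 to 7875 CPM in WT and 1448 to 2111 CPM in KO. Of these 10 genes 8 had KO below WT without overlap, against 20.8% of all genes. By edgeR 0 were called (6 with an unadjusted p of 0.05 or less, against 27.3% of all genes, and 3 by DESeq2). Hepatocyte genes went the other way, with KO above WT without overlap for all 5 tested, against 20.0% of all genes. By edgeR 0 were called, and 5 had an unadjusted p of 0.05 or less, against 27.3% of all genes. DESeq2 called 4, against 3919 of 18660 genes. Their sums were 76.3 to 80.2 CPM in WT and 86.4 to 138 CPM in KO. Most of the WT sum was Trf, at 75.02 to 79.16 CPM, and Fgb and Ttr had at most 5 counts in a WT library. In all 5 the rise was larger in KO2 and KO3 than in KO1. Alb had 193, 1491 and 1457 counts in KO1, KO2 and KO3, and Apoa1 had 57, 615 and 539. The part of any of these cells in the lower Nnat, Peg3 and Meg3 was not tested.

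The other side of the comparison was the Kcnq1ot1 cluster at the distal end of chromosome 7, where 3 of 4 members had estimates above 0. Cdkn1c encodes p57, an inhibitor of cyclin-dependent kinases that restrains growth and is expressed from the maternal copy. Cdkn1c (chr7:143458339-143461050) was at 32.4, 28.8 and 31.1 CPM in WT1, WT2 and WT3 and at 42.4, 43.1 and 42.3 CPM in KO1, KO2 and KO3. All KO libraries were higher than all WT libraries, with means of 30.8 ± 1.81 CPM in WT (SD, n = 3) and 42.6 ± 0.161 CPM in KO (SD, n = 2). The edgeR adjusted p was 0.0474, at a log2 fold change of 0.47 (SE 0.07). Under the length and GC offset it was 0.29 (edgeR adjusted p 0.281), with library size alone 0.42 (0.0526), and without 1 sample at a time the adjusted p was 0.0922 to 0.189. An antisense gene, Gm44732, covers 30.7% of the exon bases of Cdkn1c, the count table held no row for it, and whether the counting used the strand was not given in the sources used here.

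Slc22a18, an organic cation transporter gene next to Cdkn1c, followed the same pattern just short of the threshold. It was at 9.56, 9.35 and 9.89 CPM in the WT libraries and 13.1, 12.4 and 13.02 CPM in the KO libraries, with no overlap (log2 fold change 0.43, SE 0.08, edgeR adjusted p 0.0576). With the 6 libraries kept separate edgeR gave an adjusted p of 0.0129, and with the length and GC offset a log2 fold change of 0.27 and an adjusted p of 0.343. Phlda2, which restrains placental growth, had 51, 58 and 63 counts in the WT libraries against 91, 64 and 58 in the KO libraries, with overlapping levels (log2 fold change 0.52, SE 0.27, edgeR adjusted p 0.283). Without KO1 the Phlda2 estimate was 0.24. The long antisense RNA Kcnq1ot1, which silences the cluster on the paternal copy, was at 10.5, 11.3 and 9.21 CPM in WT and at 6.96, 11.8 and 12.98 CPM in KO1, KO2 and KO3. It was lowest in KO1 and highest in KO2 and KO3, so the genotypes overlapped (log2 fold change -0.09, SE 0.27, edgeR adjusted p 0.855). Of the 6 lung markers 3 were called higher (Sftpc, Sftpb and Ager, against 1.38% of all genes), Scgb1a1, Foxj1 and Cldn18 did not pass, and the 6 summed to 42040 to 45840 CPM in WT and 59650 to 69320 CPM in KO. Their part in the higher Cdkn1c was not tested.

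**Figure D3:**
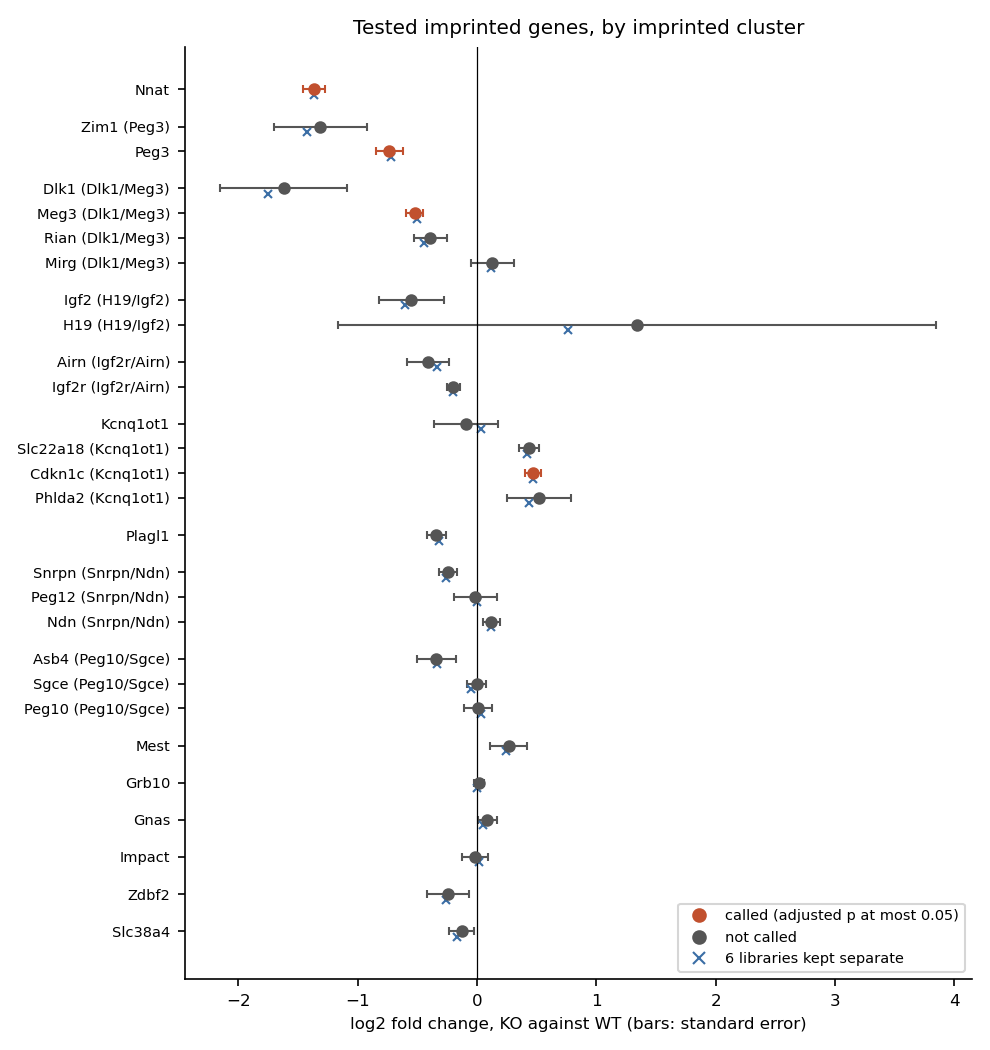
Log2 fold change of KO against WT for the 28 tested members, grouped by imprinted cluster, with the standard error as bars; orange points were called, grey points were not, and blue crosses give the fit with the 6 libraries kept separate. Nnat (-1.36), Peg3 (-0.73) and Meg3 (-0.52) lie to the left and Cdkn1c (0.47) to the right, and the H19 bar crosses 0.

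The receptor Igf2r, its antisense RNA Airn and the transcription factor Plagl1 had estimates below 0 that did not pass the test. Igf2r, the receptor that takes up Igf2 for breakdown and sorts lysosomal enzymes, was at 169, 163 and 172 CPM in WT and at 145, 148 and 146 CPM in KO. The groups did not overlap, and the log2 fold change of -0.20 (SE 0.05) had an edgeR adjusted p of 0.0960 and, with the 6 libraries kept separate, 0.0244. Under the length and GC offset the estimate for Igf2r was -0.06 (edgeR adjusted p 0.620). Airn, the antisense RNA that silences Igf2r on the paternal copy, was at 15.8, 18.0 and 16.6 CPM in WT and 10.4, 14.9 and 14.7 CPM in KO. KO1 was the lowest library, and the difference did not pass (log2 fold change -0.41, SE 0.17, edgeR adjusted p 0.211). The Airn estimate was -0.18 without KO1 and -0.70 without KO2 and KO3. Plagl1, a zinc finger transcription factor that acts on other imprinted genes, was at 35.8, 37.9 and 39.1 CPM in WT and 27.7, 31.3 and 31.5 CPM in KO. It did not overlap between genotypes and had a log2 fold change of -0.34 (SE 0.08), with an edgeR adjusted p of 0.0743 and, with the 6 libraries kept separate, 0.0235. The offset moved Plagl1 to -0.17 (edgeR adjusted p 0.283).

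In the cluster of Snrpn and Ndn, the region whose human counterpart is lost in Prader-Willi syndrome, the tested members did not share a direction. Snrpn, a protein of the splicing machinery, was at 20.03, 19.9 and 18.2 CPM in WT and 16.7, 16.6 and 15.3 CPM in KO, with no overlap (log2 fold change -0.24, edgeR adjusted p 0.127, and 0.0429 with the 6 libraries kept separate). The length and GC offset moved Snrpn to -0.02 (edgeR adjusted p 0.933). Ndn, a MAGE family protein of postmitotic neurons, was at 15.2, 15.0 and 14.3 CPM in WT and 15.9, 16.4 and 15.8 CPM in KO. The lowest KO library exceeded the highest WT library, a difference that did not pass (log2 fold change 0.12, SE 0.07, edgeR adjusted p 0.351). Peg12 overlapped between genotypes at 1.86 to 2.48 CPM (log2 fold change -0.01).

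None of the remaining members was called. Grb10, an adaptor that dampens insulin and IGF receptor signalling and the only member on chromosome 11, lies 86.5 Mb from Zpbp2. It was at 67.6, 68.3 and 69.4 CPM in WT and 70.3, 66.5 and 68.4 CPM in KO, the narrowest range of all members (log2 fold change 0.01, SE 0.04). Gnas was at 926, 888 and 960 CPM in WT and 1040, 917 and 919 CPM in KO (log2 fold change 0.09, SE 0.08). Sgce, a sarcoglycan of the dystrophin complex, was at 73.2, 74.3 and 71.8 CPM in WT and 79.2, 65.9 and 66.4 CPM in KO1, KO2 and KO3, so that KO1 was the highest and KO2 and KO3 the lowest libraries.

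Asb4, an ankyrin repeat and SOCS box protein of the same cluster, was lower in every KO library, at 1.02, 0.997 and 0.982 CPM in WT and 0.777, 0.742 and 0.856 CPM in KO, but did not pass (log2 fold change -0.34, SE 0.17, edgeR adjusted p 0.258). Peg10, a retrotransposon-derived gene needed in placenta, lay at 4.91 to 5.601 CPM in all libraries (log2 fold change 0.01). Impact, a regulator of the amino acid sensing kinase GCN2, was at 51.6, 49.2 and 44.6 CPM in WT and 43.2, 50.7 and 53.3 CPM in KO (log2 fold change -0.02). For both genes the means of the genotypes differed by less than the SD within KO.

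Mest, a member of the alpha/beta hydrolase family known from growing adipose tissue, was at 5.41, 5.51 and 7.09 CPM in WT and 7.42, 7.01 and 6.89 CPM in KO (log2 fold change 0.26, SE 0.16, edgeR adjusted p 0.347). WT3 lay with the KO libraries, and Copg2 on the other strand covers 23.1% of its exon bases. Slc38a4, an amino acid transporter gene, was at 14.4, 14.7 and 16.3 CPM in WT and 14.8, 12.8 and 12.7 CPM in KO. Zdbf2, a zinc finger gene active in early development, was at 1.90, 1.55 and 1.998 CPM in WT and 1.55, 1.56 and 1.44 CPM in KO. The genotypes overlapped for both, with edgeR adjusted p values of 0.492 and 0.439.

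Fold changes over all genes fell with exon length. With the tested genes split into 5 length groups of equal size, the median log2 fold change was 0.17 in the group with the shortest merged exons (at most 1.83 kb) and -0.14 in the group with the longest (at least 6.90 kb). The longest group held 12 of the tested members. Peg3, Meg3, Zim1, Rian, Plagl1, Zdbf2 and Igf2r were below its median and Mirg, Kcnq1ot1, Grb10, Sgce and Gnas above it. Slc22a18, Phlda2 and Nnat belong to the shortest group, where Nnat at -1.36 went against the direction of the median, and Cdkn1c belongs to the next, with a median of 0.13. Under the length and GC offset Zim1 was at -1.13 and Dlk1 at -1.59 (edgeR adjusted p 0.234 and 0.189), and the values of the other members called with the 6 libraries kept separate stand with each gene.

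**Figure D4:**
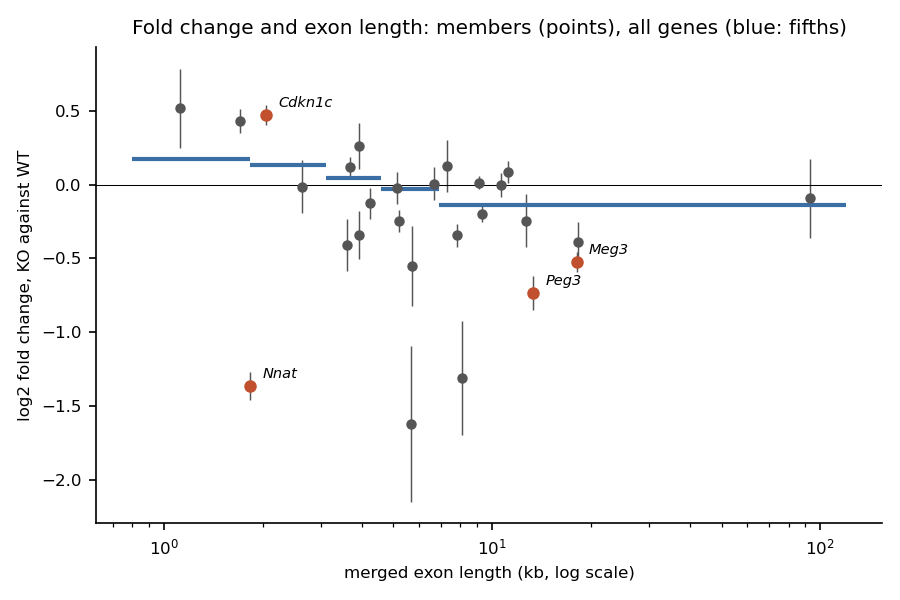
Log2 fold change of KO against WT plotted on merged exon length in kb (log scale) for the tested members other than H19, with standard errors; orange points were called, and blue lines are medians over all tested genes in 5 groups of length (the first drawn from 0.8 kb). Peg3 and Meg3 are long genes below the blue line, Cdkn1c is a short gene above it, and Nnat is a short gene far below it.

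H19 and Igf2 share a cluster and an enhancer region on chromosome 7, and H19, a noncoding RNA that is abundant in embryonic endoderm and mesoderm and in muscle, is expressed from the maternal copy. H19 (chr7:142575529-142578143) had 1394, 72 and 14760 counts in WT1, WT2 and WT3 and 28233, 56 and 57 in KO1, KO2 and KO3. In CPM it was at 19.04, 1.03 and 246 in WT and 448, 0.903 and 0.976 in KO. The high libraries were WT3 and KO1, one of each genotype, so the levels did not follow the genotype. The log2 fold change of 1.34 had an SE of 2.51 (edgeR adjusted p 0.773), and it became -6.56 without KO1. With WT3 and KO1 left out and KO2 and KO3 kept separate it was -3.42.

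The same libraries stood out for genes of other tissues. Genes of squamous epithelium summed to 4728 CPM in WT3 and 9046 CPM in KO1 and to 5.42 to 6.76 CPM in the other libraries, and skeletal muscle genes to 3328 and 4931 CPM against 35.6 to 104 CPM. All 10 genes of each list were detected. Their part in the H19 level was not tested. In WT1 and WT2, which had 6.76 and 5.53 CPM of squamous genes and 104 and 61.0 CPM of skeletal muscle genes, H19 was at 19.04 and 1.03 CPM.

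**Figure D5:**
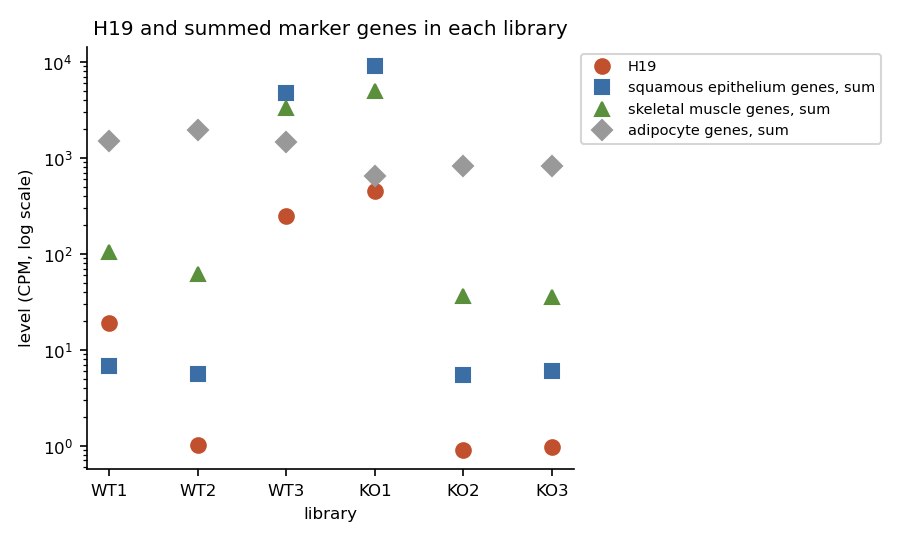
Level of H19 and summed levels of squamous epithelium, skeletal muscle and adipocyte genes in each library, in CPM on a log scale. H19 is highest in WT3 and KO1 (246 and 448 CPM), as are the squamous and skeletal muscle sums, whereas the adipocyte sum is lower in the 3 KO libraries than in the 3 WT libraries.

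Igf2, the fetal growth factor that shares this cluster and is expressed from the paternal copy, was not highest where H19 was. It was at 29.5, 16.3 and 21.7 CPM in WT1, WT2 and WT3 and at 17.0, 14.1 and 13.1 CPM in KO1, KO2 and KO3. WT1 was the highest library and KO1 lay above WT2, so the genotypes overlapped (log2 fold change -0.55, SE 0.27, edgeR adjusted p 0.267). Without WT1 the Igf2 estimate was -0.30. WT1 also had the highest sum of cardiomyocyte genes, 7875 CPM, against 3473 and 3251 CPM in WT2 and WT3 and 1448 to 2111 CPM in KO (all 10 detected, 0 called by edgeR, 6 with an unadjusted p of 0.05 or less against 27.3% of all genes, 3 by DESeq2 against 3919 of 18660 genes), and the part of these cells in the Igf2 level was not tested. A gene model on the same strand, Gm49394, covers 62.8% of the exon bases of Igf2 in the annotation used here, and the count table held no row for it.

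Other members differed between WT3 or KO1 and the remaining libraries by far less than H19. In both WT3 and KO1, 10 tested members lay above the other libraries of their genotype (35.7%, against 22.4% of all genes) and 4 lay below (14.3%, against 20.7%). Among these were Dlk1, at 1.71 times the mean of WT1 and WT2 in WT3 and 2.27 times the mean of KO2 and KO3 in KO1, Zim1, at 1.62 and 1.73 times, and Kcnq1ot1, at 0.842 and 0.562 times. Nnat, Meg3, Cdkn1c, Plagl1 and Igf2r were not among these 14 members. Peg3 was, at 0.830 and 0.915 times.

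Further imprinted genes gave a mixed picture. Of the 43 listed genes that the files held, 38 were tested and 2 were called, 1 lower and 1 higher (5.26%, against 2.28% of all genes). The median log2 fold change was -0.01. An unadjusted p of 0.05 or less was found for 23.7% of the 38, against 27.3% of all genes. The libraries did not overlap for 31.6%, against 40.8% of all genes. With the 6 libraries kept separate 8 were called, 4 in each direction (21.1%, against 18.9% of all genes). Dcn, the small matrix proteoglycan decorin of fibroblasts, was lower in KO, at 401 ± 19.2 CPM in WT (SD, n = 3) and 217 ± 22.9 CPM in KO (SD, n = 2), with a log2 fold change of -0.88 (SE 0.09, edgeR adjusted p 0.0446). Pon2, a paraoxonase gene beside Peg10 and Sgce, was higher, at 109 ± 1.81 CPM in WT (SD, n = 3) and 136 ± 3.19 CPM in KO (SD, n = 2), with a log2 fold change of 0.32 (SE 0.05, edgeR adjusted p 0.0474). Over the 15 alternatives the log2 fold change of Dcn ran from -1.0013 to -0.71 and that of Pon2 from 0.26 to 0.51, with edgeR adjusted p values of up to 0.189 for each. Next in size among the tested genes without overlap, Nap1l5 went from 1.56 to 1.05 CPM (edgeR adjusted p 0.109) and Slc22a3, beside Igf2r, from 14.4 to 10.5 CPM (0.218).

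The IGF axis and the genes that maintain imprints were listed to place the members in their pathways. Of 20 tested IGF axis genes 0 were called by edgeR, 9 had an unadjusted p of 0.05 or less (45.0%, against 27.3% of all genes), DESeq2 called 9 (against 3919 of all 18660 genes), and 9 were called with the 6 libraries kept separate, 3 higher and 6 lower (against 18.9% of all genes). Estimates were above 0 for 11 and below 0 for 9 of the 20, and the libraries did not overlap for 6 with KO below WT and 4 with KO above WT (50%, against 40.8% of all genes). Of 21 tested genes of imprint maintenance 0 were called by edgeR, 7 had an unadjusted p of 0.05 or less and DESeq2 called 7 (33.3%, against 27.3% of all genes by unadjusted p and 3919 of 18660 by DESeq2). With the 6 libraries kept separate 5 were called, 1 higher and 4 lower (23.8%, against 18.9% of all genes). Their sum was 1309 to 1318 CPM in WT and 1203 to 1282 CPM in KO.

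Counted by the copy from which they are known to be expressed, 11 maternal members were tested, with 2 called (Meg3 lower, Cdkn1c higher, 18.2%) and a median log2 fold change of 0.01. Of 19 paternal members 16 were tested, with 2 called, both lower (Nnat and Peg3, 12.5%, against 2.28% of all genes called and 0.906% called lower), and a median of -0.19. Estimates were below 0 in 13 of the 16 paternal and 5 of the 11 maternal members, and in 8928 of all 18660 genes. Of the 13, Sgce (-0.0038), Peg12 (-0.0144) and Impact (-0.0211) were close to 0. Under the length and GC offset 9 of the 16 paternal and 4 of the 11 maternal estimates were below 0, with medians of -0.04 and 0.21. Without KO1 these counts were 10 and 7, with medians of -0.215 and -0.196. They were 11 and 7 with the replicate block (-0.21 and -0.20) and without WT3 and KO1 (-0.19 and -0.18). In the other alternatives 10 to 14 paternal and 5 to 6 maternal estimates were below 0. Whether these groups differ was not tested.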

How the data were processed

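Lung RNA of 3 WT and 3 KO mice was sequenced, and the deposited table holds raw counts of reads per gene. Per the study's methods and the submitters' processing notes, the authors trimmed reads (Trimmomatic 0.36), aligned them to GRCm38 (STAR 2.5.3a), used Picard 2.9.0, and counted reads with HTSeq 0.6.0. The annotation release and the strand setting were not given in the sources used here.

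The analysis used edgeR 4.0.16 in R 4.3.3, with filterByExpr, TMM scaling, glmQLFit and glmQLFTest, two-sided, with Benjamini-Hochberg adjustment over all 18660 tested genes. KO2 and KO3 were summed and counted as 1 sample. Each SE is the log2 fold change over the square root of its F statistic. Coordinates, overlaps and exon lengths came from GENCODE M21 (GRCm38), which held 97.5% of the identifiers. Alternatives were the 6 libraries kept separate, the replicate block, other scalings, filters, DESeq2 1.42.0, leaving out samples, and an offset per library from splines (5 degrees of freedom) of log exon length and of GC content, the latter taken from each gene's longest transcript. Floors cover counting error alone, because PCR duplicates are not separate molecules.

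Values in every library are given for H19, Nnat, members called in the main or the separate fit, members whose libraries do not overlap, and the most abundant tested member per length (in WT) of each cluster. Of the further lists, called genes and the 3 largest changes without overlap among tested further imprinted genes are named. The members and lists were chosen with earlier results of these data known, and the counting of KO2 and KO3 as 1 sample rests on the same data.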

Additional observations from a re-analysis of the deposited data

How the results depend on the processing

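Nnat, Peg3, Meg3 and Cdkn1c kept their direction under all 15 alternatives. The number of members called was 10 with the 6 libraries kept separate and 13 when WT3 and KO1 were also left out (both treat KO2 and KO3 as independent), 9 with DESeq2 and 2 with library size alone. It was 0 by edgeR with the length and GC offset (7 members with an unadjusted p of 0.05 or less), 0 with that offset and the replicate block together (12), and 0 to 0 without 1 sample at a time. Of all genes, 3402 were called with the 6 libraries separate, 5985 without WT3 and KO1, 909 with at least 10 counts in every sample, 3919 with DESeq2, 0 by edgeR with the offset (3469 at an unadjusted p of 0.05 or less) or with offset and block (4666), and 0 to 17 without 1 sample at a time.

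Deviations of same-numbered libraries from their genotype means correlated at -0.48, 0.56 and -0.65, and WT3 correlated best with KO1 (0.74). With 3 libraries per genotype, and WT3 and KO1 standing apart, these values cannot tell whether the replicate numbers paired the samples. With the 6 libraries kept separate, adding the replicate block changed the calls from 10 to 5 members and from 3402 to 1157 genes. With library size alone the calls over all genes were 117 higher and 189 lower, against 257 and 169 with TMM. The fits with the block and those without WT3 and KO1 also kept KO2 and KO3 separate. Log2 fold changes that changed sign were those of H19 (-0.38 with the block, -0.49 with the block and offset, -3.42 without WT3 and KO1, -6.56 to 4.48 without 1 sample), Kcnq1ot1 (0.0296 with libraries separate, 0.56 with the offset, 0.66 with block and offset, 0.18 without WT3 and KO1, -0.57 to 0.25 without 1 sample, -0.17 of these without WT3), Grb10 (-0.0002 with the block, -0.04 with library size alone, -0.0106 without WT3 and KO1, -0.0239 to 0.039 without 1 sample, 0.0218 of these without WT3), Peg12 (0.0008 with libraries separate, 0.0088 with the block, -0.11 to 0.0908 without 1 sample), Peg10 (-0.0462 with library size alone, -0.0845 to 0.0812 without 1 sample, -0.0004 of these without WT1), Sgce (0.26 with the offset, 0.19 with block and offset, -0.15 to 0.12 without 1 sample, 0.0016 of these without WT2), Impact (0.0181 with libraries separate, 0.0152 with the block, 0.076 with the offset, 0.12 with block and offset, 0.0446 without WT3 and KO1, -0.17 to 0.0983 without 1 sample, -0.0815 of these without WT3), Rian and Zdbf2 (0.0129 and 0.0099 with the offset) and Gnas (-0.0129 to 0.17 without 1 sample, 0.11 of these without WT3). None of these was called with KO2 and KO3 as 1 sample and TMM scaling. The cause of these changes was not tested. Depth limits Zim1, Dlk1, Mirg, Phlda2 and Asb4, which had fewer than 100 counts in every library, and Usp29, Magel2 and Rtl1, which were too low to test.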
